A study of Mus musculus with 4 samples.

Results

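In wild-type E12.5 mouse limbs, 784 of the 20874 peaks of the cohesin subunit RAD21 lay at promoters without a CTCF peak in transgenic limbs. They were taken as the peaks on autosomes that shared not a single base with a CTCF peak of either replicate and whose summit stood within 1 kb of the start of a protein-coding gene (GENCODE M21, mm10). Of the 20364 autosomal RAD21 peaks, they made up 3.85%, beside 1125 promoter peaks on CTCF, 3048 distal peaks away from CTCF and 15407 distal peaks on CTCF. The members were thus chosen by the wild-type RAD21 peak calls and the CTCF peak calls, so that the values of these lists at them are given as a description, with no test.

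The wild-type peaks come from 1 ChIP-seq library of whole limbs made in an earlier study, whose strain is not given in the sources used here, and they have no replicate. They were set against RAD21 and CTCF ChIPmentation of E12.5 whole limbs that carried TgN(38-40)/Wt on top of del(CS38-40)-/- in the strain B6CBAF1, with 2 biological replicates per antibody. These embryos are from 1 transgenic line, carry the insertion TgN(38-40) of the HoxD boundary region CS38-40 on 1 of their chromosomes 10, and lack both endogenous copies of CS38-40 on chromosome 2. The CTCF lists are thus of TgN(38-40) limbs and not of wild-type limbs, and they were made from the same kind of tissue as the TgN(38-40) RAD21 lists. Read counts are not part of the files used here, so that sequencing depth is unknown for all libraries, and a site without a peak is one that stayed below the calling threshold. Expression, by which the tissue could be checked, is not part of them either.

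Cohesin is a ring-shaped complex that RAD21 closes, and it extrudes chromatin loops until it meets a barrier, of which CTCF bound to its motif is the best known in mammals. Cohesin has been proposed to be loaded at or near active promoters, and a weaker signal of its subunits is often seen at gene starts without CTCF. The genes of transfer RNAs are transcribed by RNA polymerase III from promoter elements inside the gene, the A box and the B box, to which the factor TFIIIC binds. In yeast, tRNA genes bound by TFIIIC are known sites of cohesin and condensin and can act as insulators.

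A tRNA gene was the sequence feature that most members of replicate 1 shared. Of the 784 members, 24 overlapped a tRNA gene, a share of 3.06% where 0.683% of all autosomal wild-type RAD21 peaks did. This share was not particular to the members, as 100 of the 3048 distal peaks away from CTCF also overlapped one. On CTCF, 3 of the 1125 promoter peaks and 12 of the 15407 distal peaks did. The tRNA genes were looked up after it was seen which members recurred. The sequences of 8 of them are shown from RefSeq (GRCm38.p6), 5′ to 3′ on the strand of the tRNA gene, because 20 of the 24 members with a tRNA gene were found in TgN(38-40) replicate 1. Capitals mark matches to GTTCGANNC, the letters used here for the B box.
n-TVaac8 (tRNA-Val, beside Mynn, chr3:30601270-30601342, plus strand): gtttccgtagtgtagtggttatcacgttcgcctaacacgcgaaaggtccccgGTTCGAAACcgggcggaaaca
n-TRtcg5 (tRNA-Arg, beside Polg, chr7:79466419-79466491, plus strand): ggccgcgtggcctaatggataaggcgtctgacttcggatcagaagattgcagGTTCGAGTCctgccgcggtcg
n-TRcct1 (tRNA-Arg, beside Fmc1, chr6:38533931-38534003, plus strand): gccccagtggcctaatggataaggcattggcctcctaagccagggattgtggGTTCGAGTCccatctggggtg
n-TSgct7 (tRNA-Ser, beside Knl1, chr2:119046750-119046831, minus strand): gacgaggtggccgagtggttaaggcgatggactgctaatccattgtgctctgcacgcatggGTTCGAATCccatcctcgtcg
n-TStga3 (tRNA-Ser, beside Ctnna3, chr10:63429476-63429557, minus strand): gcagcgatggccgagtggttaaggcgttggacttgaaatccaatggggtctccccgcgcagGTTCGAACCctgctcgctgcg
n-TGccc7 (tRNA-Gly, beside Mettl26, chr17:25875088-25875158, plus strand): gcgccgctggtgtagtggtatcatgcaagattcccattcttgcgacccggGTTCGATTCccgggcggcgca
n-TIaat16 (tRNA-Ile, beside Plekhg2, chr7:28372999-28373093, plus strand): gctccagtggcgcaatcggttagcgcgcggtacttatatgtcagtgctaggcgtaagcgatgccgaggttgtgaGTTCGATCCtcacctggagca
n-TPtgg5 (tRNA-Pro, beside Rnase4, chr14:51090647-51090718, plus strand, no peak in replicate 1): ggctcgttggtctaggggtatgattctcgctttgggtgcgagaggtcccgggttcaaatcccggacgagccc

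The B box letters stood in 19 of the 24 tRNA genes. In the 300 bp around the summits, on either strand, they were found in 79.2% of the 24 members with a tRNA gene. They were in 1.05% of the 760 others and in 1.24% of the 20807 autosomal protein-coding promoters. As the B box is a part of tRNA genes, this contrast follows from how the 24 were grouped. The gene n-TPtgg5 holds another spelling of the element and no match. Nor did n-TDgtc16, n-TQctg9, n-TAagc9 and n-TAagc15 hold a match, and these were in replicate 1. The letters were present in n-TNgtt8, n-TWcca2 and n-TMcat17, which were not in replicate 1.

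Further windows show what was found at the other members that the results turn on. Each is the plus strand of mm10 within 60 bp of the wild-type RAD21 summit. Slc24a3, Plk2 and Arl4a are the members found in both TgN(38-40) replicates, Nsg2 and Trpc4 are strong members found in replicate 2, and the window of Ccdc107 reaches into the non-coding RNA gene Rmrp. Capitals mark the best match of 19 bp to a CTCF model learned from the CTCF peaks of replicate 2, where the match reached the score that 5% of flanking windows reach.
Slc24a3 (chr2:145168181-145168301, match on the plus strand): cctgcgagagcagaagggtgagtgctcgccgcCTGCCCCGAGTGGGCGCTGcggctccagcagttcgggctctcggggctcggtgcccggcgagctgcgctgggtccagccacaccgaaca
Plk2 (chr13:110394358-110394478, match on the plus strand): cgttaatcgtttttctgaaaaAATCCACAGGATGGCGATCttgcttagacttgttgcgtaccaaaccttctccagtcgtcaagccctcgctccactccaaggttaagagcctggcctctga
Arl4a (chr12:40037450-40037570, no match): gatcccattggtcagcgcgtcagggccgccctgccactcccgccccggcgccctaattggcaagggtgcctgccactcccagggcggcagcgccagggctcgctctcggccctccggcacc
Nsg2 (chr11:32000311-32000431, match on the plus strand): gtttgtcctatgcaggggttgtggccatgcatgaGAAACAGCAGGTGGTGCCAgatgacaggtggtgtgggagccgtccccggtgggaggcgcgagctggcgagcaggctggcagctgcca
Trpc4 (chr3:54155413-54155533, match on the minus strand): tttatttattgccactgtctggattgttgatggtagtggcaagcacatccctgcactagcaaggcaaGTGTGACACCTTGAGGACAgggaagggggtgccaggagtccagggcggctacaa
Ccdc107 (chr4:43493003-43493123, no match): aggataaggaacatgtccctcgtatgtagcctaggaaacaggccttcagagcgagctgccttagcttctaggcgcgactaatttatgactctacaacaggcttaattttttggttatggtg

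Promoter RAD21 peaks away from CTCF were rarely found again in TgN(38-40) limbs. In replicate 1, 24 of the 784 members (3.06%) overlapped a RAD21 peak, against 19.6% of all autosomal wild-type peaks. In replicate 2, 68 members (8.67%) did so, against 66.3% of all. The members were weaker, with a median wild-type -log10 q of 7.84 against 32.9 for all. By the rule, they also lacked a CTCF peak in the TgN(38-40) limbs in which recurrence was read. Only 3 members, at Slc24a3, Plk2 and Arl4a, were found in both replicates, 21 in replicate 1 alone, 65 in replicate 2 alone and 695 (88.6%) in neither. Promoter peaks on CTCF recurred in 15.6% and 60.2% of cases, and distal peaks away from CTCF in 4.07% and 26.6%. Genotype, study and the change from ChIP-seq to ChIPmentation separate the wild-type list from both others and cannot be told apart. Strain and sequencing depth may differ as well.

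Few members of replicate 1 were in replicate 2. Of all 4053 autosomal RAD21 peaks of replicate 1, 95.3% had an overlapping peak in replicate 2, while 3848 of the 14459 of replicate 2 had one in replicate 1. Of the 24 members found in replicate 1, 21 had no peak in replicate 2. These 21 comprised 20 members with a tRNA gene and the member at Ccdc107.

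The tRNA members were found in replicate 1 and not in replicate 2. Of the 24, 20 (83.3%) overlapped a RAD21 peak of replicate 1 and 0 overlapped a peak of replicate 2. Of the 760 members with no tRNA gene, 4 (0.526%) were in replicate 1 and 68 (8.95%) in replicate 2. The difference between these shares rests on 1 library each and was not tested. The same held away from gene starts, where 65 of the 100 distal tRNA peaks away from CTCF were in replicate 1 and 1 was in replicate 2.

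**Figure D1:**
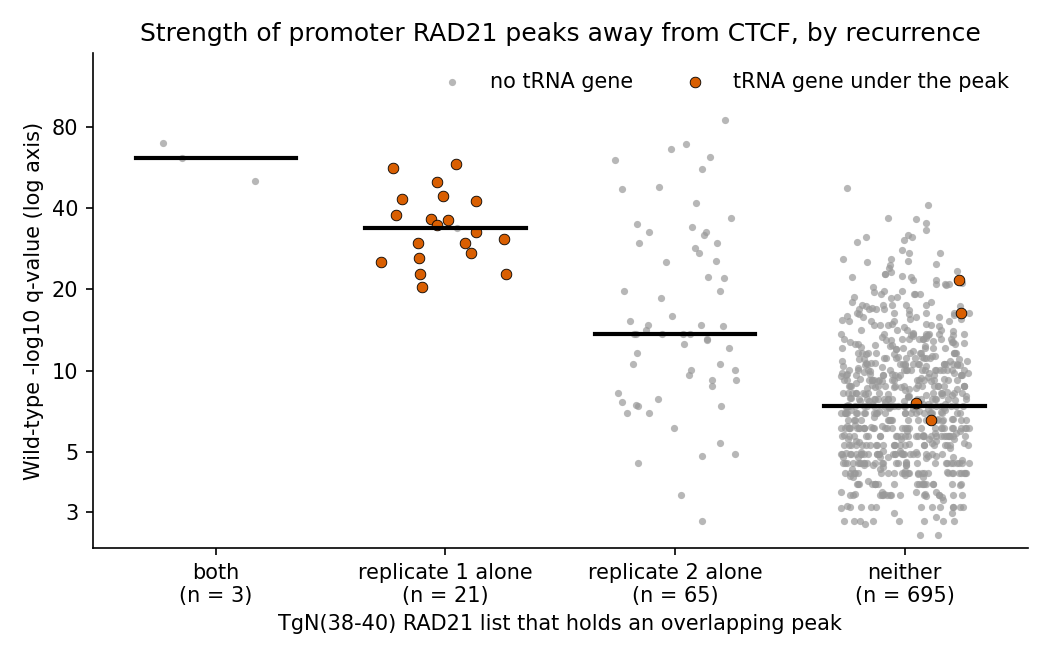
Wild-type -log10 q-value (log axis) of each of the 784 members, by the TgN(38-40) RAD21 list that holds an overlapping peak, with a bar at the median and orange points for members over a tRNA gene. The 20 tRNA members of replicate 1 lie between 20.4 and 58.0, whereas members found in neither replicate have a median of 7.40.

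In replicate 1 the tRNA members were among the stronger peaks of the list. Their fold enrichment, the ratio of signal to local background that MACS2 gives at the summit, ran from 5.42 to 9.61 with a median of 7.75. Their -log10 q-value had a median of 9.35, and 10 of the 20 ranked in the top 10% of all replicate 1 peaks. Slc24a3, Plk2 and Arl4a, found in both replicates, ranked 4000, 4067 and 3201 among the 4102 peaks of replicate 1, against a median rank of 434 for the 20 tRNA members.

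The strongest of them in the wild type stood 814 bp upstream of Mynn, which codes for the zinc finger protein myoneurin, at chr3:30601061-30601499. Its summit was 19 bp from the valine tRNA gene n-TVaac8. It had a wild-type fold of 6.25 and -log10 q of 58.0, a fold of 8.49 and -log10 q of 11.0 in replicate 1, and no peak in replicate 2. The peak 66 bp upstream of Polg, the catalytic subunit of the mitochondrial DNA polymerase, had its summit inside the arginine tRNA gene n-TRtcg5. Its fold was 5.78 in the wild type and 7.90 in replicate 1, with -log10 q-values of 50.1 and 9.78. At Prmt5, which codes for an arginine methyltransferase of histones and splicing proteins, the summit was 4 bp from another arginine tRNA gene, n-TRacg6. The fold was 6.16 in the wild type and 7.73 in replicate 1. All 3 sites thus had a peak in the wild type and in replicate 1 and stayed below the threshold in replicate 2.

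In replicate 1 the highest q-values of these members were at Agbl5 and Fmc1. The peak at Agbl5, a deglutamylase of tubulin, overlies 2 tRNA genes, of which that nearest to the summit is an alanine tRNA gene. It had a fold of 8.92 and -log10 q of 15.0 and ranked 69 in replicate 1, with a wild-type -log10 q of 36.4. The peak 408 bp downstream of the start of Fmc1, an assembly factor of the mitochondrial ATP synthase, overlies the arginine tRNA gene n-TRcct1. It ranked 85, with a fold of 9.61 and -log10 q of 14.1. The weakest of the 20 in replicate 1 was that upstream of 2610301B20Rik, over the serine tRNA gene n-TSaga9, with -log10 q of 3.52 and rank 3336. The 20 thus spanned most of the range of the replicate 1 list, with the weight towards its strong end.

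The remaining 14 tRNA members of replicate 1 were near Tmpo, Knl1, Mettl26, 1700064H15Rik, Rab11a, Sacm1l, Plekhg2, Tia1, Smarcc2, Wbp4, Ndufs7, Ctnna3, Ppp6r3 and B4gat1. Their protein-coding genes have varied roles, among them a lamina-associated protein (Tmpo), a kinetochore scaffold (Knl1), a GTPase of recycling endosomes (Rab11a), a subunit of the BAF chromatin remodelling complex (Smarcc2) and a subunit of respiratory complex I (Ndufs7). The 4 tRNA members without a peak in replicate 1 were at Rnase4 (tRNA-Pro), Psmb3 (tRNA-Asn), Fbxo31 (tRNA-Met) and a further peak at Tmpo (tRNA-Trp). Their wild-type -log10 q-values were 21.6, 16.4, 6.54 and 7.59. All but that of Rnase4 lie below 20.4, the lowest among the 20 that recurred.

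Some peaks held more than 1 tRNA gene, as at Agbl5 (2), Ndufs7 (2) and 1700064H15Rik (3), and the gene nearest to the summit was then taken. The summits followed the tRNA gene so chosen closely. They lay inside it at 12 of the 24 members, at a median of 2 bp from it and at most 68 bp away. The tRNA genes themselves lay from 49 to 913 bp from the protein-coding start, and 11 of the 24 were on the strand of the protein-coding gene. Serine tRNA genes underlay 5 members and arginine tRNA genes 4, where the autosomes hold 22 and 23 such genes. All 9 were in replicate 1, as were 83.3% of all tRNA members. Alanine, asparagine and glycine tRNA genes underlay 2 members each. The other 9 members held tRNA genes for 9 further amino acids. Of the 24 tRNA genes, 11 have a sequence found once on the autosomes, and 10 of these were in replicate 1. The other 13 have up to 9 identical copies, and 10 of them were in replicate 1. Reads of identical copies cannot be told apart.

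Over all tRNA genes, the lists differed in the same way. Of the 386 autosomal tRNA genes of the RefSeq annotation, 155 (40.2%) were under a wild-type RAD21 peak, 106 (27.5%) under a peak of replicate 1 and 2 (0.518%) under a peak of replicate 2. Peaks of CTCF replicates 1 and 2 lay over 8 and 9 of them. Of the 43 tRNA genes within 1 kb of a protein-coding gene start, 31 (72.1%) had a wild-type RAD21 peak and 24 (55.8%) a peak of replicate 1. In the lists on the custom genome, where reads with several places were kept and whose chromosomes 2 and 10 were left out here, 108 of 367 tRNA genes were under a peak in replicate 1 and 2 in replicate 2.

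**Figure D2:**
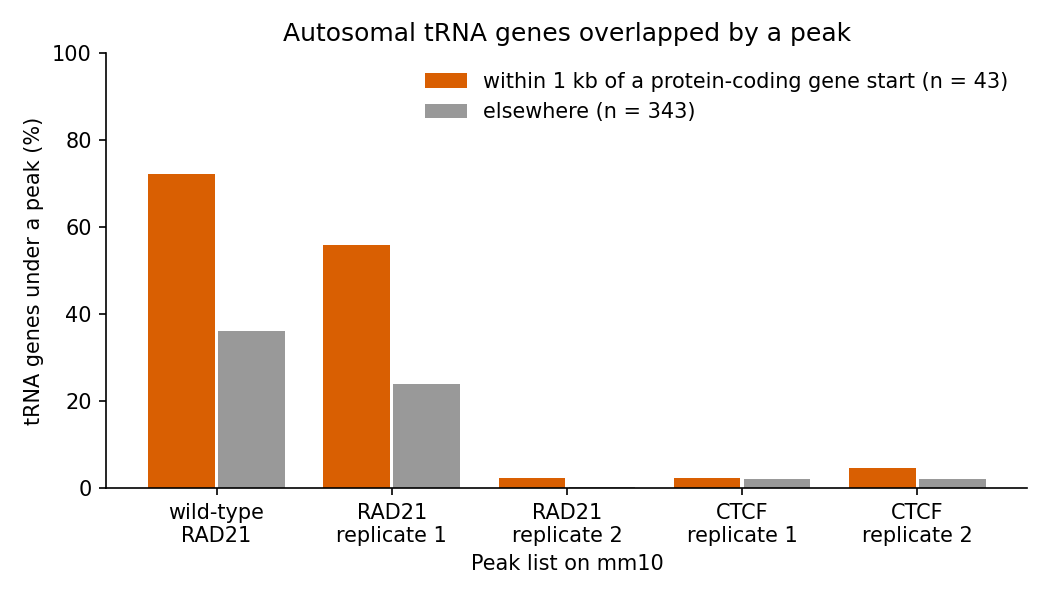
Share of autosomal tRNA genes under a peak (%, vertical axis) in each list on mm10, for the 43 tRNA genes within 1 kb of a protein-coding gene start and the 343 others. The wild-type RAD21 list and replicate 1 cover 72.1% and 55.8% of the 43, and replicate 2 covers 1 of them.

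A further gene of RNA polymerase III underlay the member at Ccdc107. Its wild-type peak at chr4:43492814-43493220 overlapped Rmrp, which codes for the RNA component of the RNase MRP that processes ribosomal RNA. The summit was 4 bp upstream of the start of Rmrp and 163 bp downstream of that of Ccdc107. It had a fold of 4.57 and -log10 q of 33.8 in the wild type and a fold of 9.27 and -log10 q of 11.3 in replicate 1, where it ranked 224. It had no peak in replicate 2, as was the case for the tRNA members.

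At members with no tRNA gene, recurrence in replicate 2 followed the strength of the wild-type peak. With a wild-type -log10 q below 5, 5 of 180 (2.78%) had a peak in replicate 2. The share was 4.38% of 320 between 5 and 10, 11.7% of 197 between 10 and 20, 28.6% of 49 between 20 and 40 and 85.7% of 14 at 40 or more. In the same ranges it was 17.6%, 11.5%, 30.9%, 60.1% and 94.5% of promoter peaks on CTCF. Distal peaks away from CTCF without a tRNA gene gave 1.45%, 6.66%, 25.6%, 54.4% and 87.9%. In replicate 2 the members therefore had the lowest share of the 3 classes in each range from 5 up, although only 14 members are counted at 40 or more. In replicate 1, the shares at 40 or more were 21.4% of members, 36.8% of promoter peaks on CTCF and 15% of distal peaks away from CTCF. These differences were not tested.

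**Figure D3:**
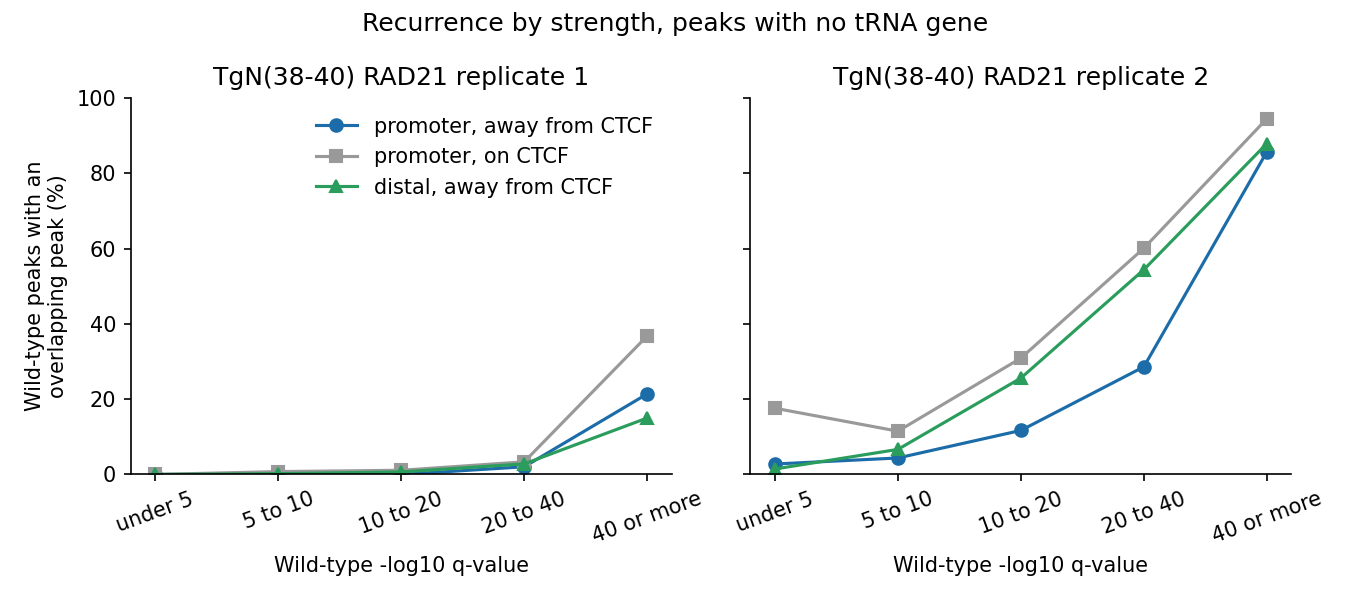
Share of wild-type RAD21 peaks with an overlapping peak in TgN(38-40) replicate 1 and replicate 2 (%, vertical axes), by range of wild-type -log10 q-value, for peaks with no tRNA gene in 3 classes. In replicate 2 the members rise from 2.78% below 5 to 85.7% at 40 or more.

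Most members were weak in the wild type itself. Their median fold was 2.61 and their median -log10 q 7.84, against 4.29 and 28 for promoter peaks on CTCF and 5.27 and 43.4 for distal peaks on CTCF. There were 64 members with a -log10 q between 20 and 40 and 20 members with 40 or more, the highest being 84.5. The members found in neither replicate had a median of 7.40, those in replicate 2 alone 13.7 and those in replicate 1 alone 33.8. As the class comparisons rest on CTCF lists of TgN(38-40) limbs, they are not independent of the tissue in which recurrence was read.

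The strongest of all members was at Nsg2, which codes for a neuronal endosomal protein, with its summit 92 bp upstream of the gene start at chr11:32000186-32000597. It had a fold of 7.52 and -log10 q of 84.5 in the wild type, no peak in replicate 1, and a fold of 7.47 and -log10 q of 8.67 in replicate 2. The nearest CTCF peak was 50411 bp away. The next was Slc24a3, which codes for a sodium, calcium and potassium exchanger. It had a -log10 q of 69.8 in the wild type, 2.34 in replicate 1 and 2.67 in replicate 2, and a CTCF peak 848 bp away. It was therefore found in both replicates, in each near the threshold.

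The other members found in both replicates were at Plk2, a polo-like kinase, and at Arl4a, a small GTPase of the ARF family. Plk2 had -log10 q-values of 61.3 in the wild type, 2.14 in replicate 1 and 6.38 in replicate 2, with folds of 5.41, 4.07 and 5.13. Arl4a had -log10 q-values of 50.4, 3.75 and 5.91, with folds of 5.33, 5.31 and 5.84. Both had a CTCF peak within 5 kb, at 1664 and 2467 bp.

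Trpc4, which codes for a cation channel, had the highest -log10 q of any member in replicate 2. This was 17.0, with a fold of 10.8 and rank 2575 among 14787 peaks, and its wild-type -log10 q was 66.3. Sipa1l2, which codes for an activator of Rap GTPase activity, followed the same pattern with -log10 q-values of 69.0 and 9.95. Klhl3, an adaptor of the CUL3 ubiquitin ligase, had 61.9 and 4.91, and Def6, a guanine nucleotide exchange factor of immune cells, had 60.2 and 6.44. Xdh, the xanthine dehydrogenase of purine breakdown, had 56.0 and 7.09. None of these 5 had a peak in replicate 1.

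The last of the 15 strongest members were Pcdhgc3, of the gamma protocadherins, Pdzd2, a protein with PDZ domains, and Hoxd10. Pcdhgc3 had a wild-type -log10 q of 47.7 and 4.43 in replicate 2. Pdzd2, with 47.3 in the wild type, had a peak in neither replicate. Of the 15 strongest, 11 were in replicate 2, 6 in replicate 1 and Pdzd2 alone in neither. After it, the strongest members in neither replicate were Pask, a PAS domain kinase, at 41.0 and Stx16, a syntaxin of the Golgi, at 36.9, named after their values were seen.

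Further members of replicate 2 are named after their values were seen, each with its wild-type and its replicate 2 value. Gpx8, a peroxidase of the endoplasmic reticulum, had a -log10 q of 14.7 in the wild type and of 10.3 in replicate 2, the second highest of the members there. Mpped2, a metallophosphoesterase, had 7.40 and 6.61. Col5a1, a chain of fibrillar collagen V, had 25.3 and 7.47, and Rspo2, a secreted amplifier of WNT signalling needed for limb outgrowth, had 12.6 and 5.27. Notch2, a receptor of the Notch pathway, had 2 member peaks, at 7.65 and 2.78 in the wild type, and both overlapped a replicate 2 peak with -log10 q of 2.36.

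Of the 26 members with a wild-type -log10 q of 20 or more that recurred in replicate 2, those not yet described were, in falling order of the wild-type value, Myof, Chrm5, Sorcs2, Mmp16, Ccdc42, 1190002N15Rik, Cox10, Cpe, Ruvbl2, Nppc, Elfn1, Bok, Sdc2 and Phlda1. They ran from 41.8 at Myof, a membrane repair protein of the ferlin family, to 22.0 at Phlda1. Sorcs2, a sorting receptor, had the highest replicate 2 value among them, with -log10 q of 9.06 and a fold of 5.87, and its nearest CTCF peak was 656 bp away. Mmp16, a membrane-bound matrix metalloproteinase, had 33.9 and 3.95. Cox10, an enzyme of the heme A pathway that serves cytochrome oxidase, had 31.9 and 5.67. Ruvbl2, an ATPase of chromatin remodelling complexes, had 29.7 and 3.07.

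Of the 37 members with a wild-type -log10 q of 20 or more that were found in neither replicate, a few are named, again after their values were seen. Tgfbr3, the TGF-beta co-receptor betaglycan, had 31.3 and Bmpr1b, a BMP receptor required for digit cartilage, had 25.3. Fzd1, a WNT receptor, had 22.4 and Gas1, a co-receptor of hedgehog ligands, had 20.9. Pdgfd, a ligand of the PDGF family, had 33.2, Fat1, an atypical cadherin, had 36.3, and Eya1, a transcriptional cofactor with phosphatase activity, had 24.7. These values overlap those of the members that recurred in replicate 2.

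The 784 peaks named 743 nearest genes, and 818 gene starts lay within 1 kb of a summit, which is 3.93% of the 20807 autosomal protein-coding genes. Of the peaks, 81 had 2 or more gene starts in reach, among them 74 (9.44%) with starts on opposite strands. At 39 genes there were 2 or more member peaks. Ncam1, a neural cell adhesion molecule, and Hmga2, an architectural factor of embryonic mesenchyme, had 3 each, all weak, with highest -log10 q-values of 9.76 and 7.66 and no peak in replicate 2.

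Limb patterning genes held members at 8 of 64 starts (12.5%), beside the 3.93% of all genes, a list chosen with earlier results known. Hoxd10, which patterns the middle and distal limb, was the strongest of them, with its summit 136 bp upstream of the start, a fold of 5.60 and -log10 q of 47.0. It was the only limb patterning member found again, in replicate 2, with a fold of 4.03 and -log10 q of 2.15, at rank 14741 of 14787. Hoxd9, its neighbour, had a wild-type -log10 q of 4.18. Spry1 and Spry4, feedback inhibitors of FGF signalling, had 16.2 and 9.35, and Dusp6, a phosphatase that acts in the same feedback, had 5.43. Prrx1, a homeodomain factor of limb mesenchyme, had 14.9, Sox9, which commits cells to cartilage, had 7.12, and Gli2, a transcription factor of hedgehog signalling, had 3.81. Apart from Hoxd10, these 7 had wild-type -log10 q-values below 20, where most members were not found again.

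Immediate early genes held members at 4 of 25 starts (16%), beside the 3.93% of all genes. None of the 4 was found in TgN(38-40) limbs, as was the case for 88.6% of all members. Their wild-type -log10 q-values were 20.7 at Myc, 14.5 at Klf6, 8.06 at Btg1 and 3.46 at Ier5. Btg1, an antiproliferative gene, is also the gene of the domain on chromosome 10 that received the insertion. Of the cohesin and CTCF genes, 2 of 16 held a member. Pds5b, a regulator of cohesin release, had -log10 q-values of 5.40 in the wild type and 3.95 in replicate 2, and Sgo1, which protects centromeric cohesin, had 10.1 in the wild type only. Mcm4, of the replicative helicase, shares the start region of Prkdc and was the single cell cycle gene of 30, at 6.54.

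Of the listed markers of other cell types in a whole limb, 0 of 8 erythroid, 5 endothelial, 5 muscle, 6 ectoderm, 4 immune and 2 Schwann cell genes held a member, beside 3.93% of all genes, a share at which lists this short can hold none. Clec14a, an endothelial gene outside these lists that was noticed after the values were seen, held a member with a wild-type -log10 q of 9.79. Members were absent from the starts of 81 cytosolic ribosomal protein genes and 67 replication-dependent histone genes. Genes of mitochondrial respiration and the mitochondrial ribosome held 9 of 164 (5.49%), and zinc finger genes of the Zfp series 11 of 385 (2.86%), on either side of the 3.93% of all genes. The former were Cox6c, Mrpl33, Mrpl37, Mrpl44, Mrps21, Mrps27, Mrps35, Ndufs7 and Uqcrc2, of which Ndufs7, over an asparagine tRNA gene, was in replicate 1 and Mrpl37 and Uqcrc2 were in replicate 2. Translation factors and their modifiers held 5 of 65 (7.69%), at Eef1akmt2, Eef1d, Eef2k, Eef2kmt and Eif2a, none of them in either replicate.

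The summits of the members were most frequent in the first 200 bp of the gene. Their median was 76.5 bp downstream of the start, or 4.5 bp for the 282 with a wild-type -log10 q of at least 10, with 216 of the 784 between 0 and 200 bp downstream and 147 in the 200 bp upstream. Promoter peaks on CTCF had a median of -72 bp, with 383 of 1125 in the 200 bp upstream and 121 in the 200 bp downstream. The tRNA members had a median of -351 bp, with 21 of the 24 upstream of the gene. Members in replicate 2 alone had a median of -5 bp, and those found in neither replicate of 91 bp.

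**Figure D4:**
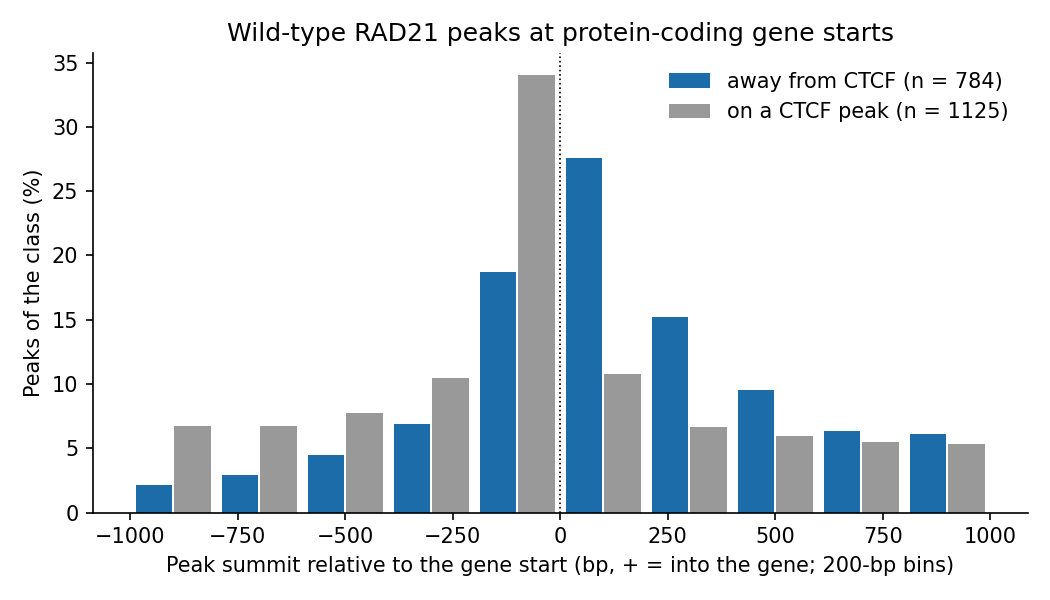
Share of the peaks of each class (%, vertical axis) by the position of the summit relative to the gene start, in bins of 200 bp, for the 784 members and the 1125 promoter peaks on CTCF. Members are most frequent from 0 to 200 bp downstream (216 peaks), and peaks on CTCF in the 200 bp upstream (383 peaks).

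Peaks lay close to the limits of the rule on either side. Just inside 1 kb were peaks at Trpc4 and Sox4, both at 997 bp, and at Lrrc1 at 991 bp, with wild-type -log10 q-values of 8.28, 7.04 and 3.82. Just outside were peaks at Plpp3 at 1001 bp, Fzd1 at 1009 bp and Epha6 at 1013 bp, with 22.5, 13.5 and 31.9, all higher than the 3 inside. The members nearest to CTCF were those at Csgalnact1, which abutted a CTCF peak, and at Slco3a1 and Galnt10, at 36 and 39 bp from one. Over all members the nearest CTCF peak lay at a median of 20088 bp, with 47 (5.99%) within 500 bp and 207 (26.4%) within 5000 bp.

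The members were rich in G+C and in CpG. In the 300 bp around the summit, they had a median of 64.7% G+C and a CpG ratio, observed over expected, of 0.77, and 78.6% reached a ratio of 0.6. Promoter peaks on CTCF had 58.7%, 0.65 and 56.2%, and the promoters of the member genes 62%, 0.78 and 74%. Over all autosomal protein-coding promoters these values were 55.3%, 0.54 and 45.5%, and in distal peaks away from CTCF 47.3%, 0.20 and 11.6%. The members with a tRNA gene had 49.3% G+C at a CpG ratio of 0.88. Members in replicate 2 alone had 61.7% G+C and those in neither replicate 65.3%. Whether base composition bears on what each library preparation recovers was not tested.

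**Figure D5:**
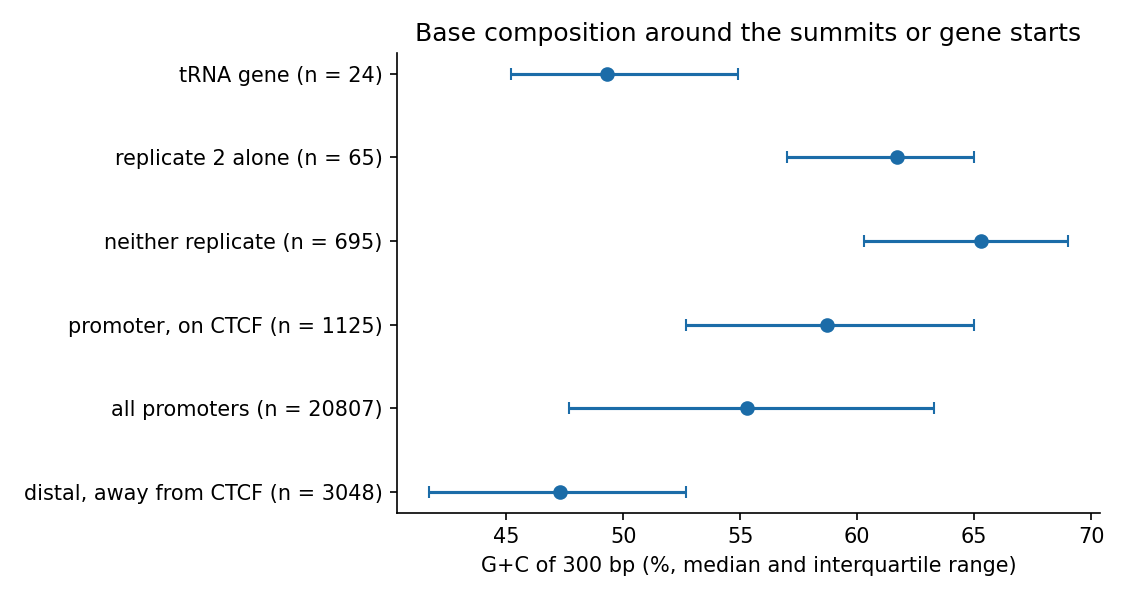
G+C content of 300 bp (%, horizontal axis, median and interquartile range) around the summits of 3 sets of members and of 2 other classes of wild-type RAD21 peaks, and at all autosomal protein-coding promoters. Members found in neither replicate have a median of 65.3% and those with a tRNA gene 49.3%.

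In the promoters of the 818 member genes, from 250 bp before to 50 bp after the start, motifs of common promoter factors were counted on both strands. The ETS motif CCGGAAG stood in 16.3%, against 11.0% of all autosomal protein-coding promoters. The shares were 18.7% and 14.8% for GGGGCGGGG of SP and KLF factors, 11.6% and 8.92% for AGCCAAT of NFY, and 4.03% and 2.43% for TGACGTCA of CREB and ATF factors. The TATA box letters TATAAA were in 7.33% and 12.7%, and CACGTG of MYC and USF factors in 7.33% and 7.82%. The promoters of the member genes had 62% G+C against 55.3% over all promoters. Whether these shares differ beyond base composition was not tested. In the 300 bp around the summits of the members themselves, the shares were 11.2% for ETS, 7.27% for SP and KLF, 5.61% for NFY, 2.17% for CREB and ATF and 4.21% for the TATA box, which is at or below those of all promoters. These letters can share bases with each other, and a match is a description of the sequence.

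A CTCF motif was found at a part of the members in spite of the absence of a CTCF peak. The model, tried once the values were known, rests on 2000 CTCF peaks of replicate 2, and a match within 50 bp of the summit at its threshold was present at 175 members (22.3%), against 9.18% of all gene starts and 74.6% of promoter peaks on CTCF. Of the members with no tRNA gene, it was present at 15.8% of the 500 with a wild-type -log10 q below 10 and at 52.4% of the 63 with 20 or more. It was present at 33.8% of members in replicate 2 and 21.9% of those in neither replicate. Among those with a wild-type -log10 q of 20 or more, these were 16 of 26 (61.5%) and 17 of 37 (45.9%). Distal peaks away from CTCF had a match in 53.6% of cases. None of the 24 tRNA members had a match. The windows of Slc24a3, Plk2, Nsg2 and Trpc4 printed above hold such matches, and those of Arl4a and Ccdc107 do not. Whether CTCF was bound below the threshold at these members was not tested. The consensus of the model is rich in G+C, and the members had 64.7% G+C against 55.3% over all promoters. Shares at matched base composition were not computed. Promoter peaks on CTCF were chosen by lists that include the one the model was learned from, so that a high share there was built in. The members were chosen for having no peak in those same lists, so that a lower share than on CTCF was built in too.

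Applied to the TgN(38-40) RAD21 lists, the same rule gave fewer peaks, which were mostly members in replicate 1 but not in replicate 2. In replicate 1, 30 of 4053 autosomal peaks (0.74%) lay at promoters away from CTCF. Of these, 22 held a tRNA gene, 26 (86.7%) overlapped a wild-type peak and 25 overlapped a member. In replicate 2, 152 of 14459 (1.05%) lay at promoters away from CTCF. Among them, 0 held a tRNA gene, 72 (47.4%) overlapped a wild-type peak and 67 overlapped a member. The share of such peaks was 3.85% in the wild type.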

How the data were processed

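CTCF and RAD21 were profiled by ChIPmentation and, in the wild type, by ChIP-seq. Reads were aligned by the authors to mm10 and to a custom genome with the insert, and MACS2 was run per replicate. MACS2 2.1.1.20160309, Bowtie2 2.3.4.1 and 2.3.5, SAMtools 1.9, Picard 2.19 and cutadapt 1.16 are named in the submitters' processing notes. The deposited values used here are the fold enrichment of each peak, which is a ratio to local background, and its -log10 q-value, both from the authors' MACS2 runs. The control given to MACS2 is not stated in the sources used here. Folds and q-values were not compared between lists, other than side by side. The input libraries, without peak lists, were left out.

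From the 5 lists on mm10, peaks were matched by overlap of at least 1 bp, and the 4 lists on the custom genome served as an alternative off chromosomes 2 and 10. Gene starts came from GENCODE M21, and sequence, tRNA genes and Rmrp from RefSeq (GRCm38.p6), which has the coordinates of mm10. Positions are 1-based. With 1 wild-type library, and since peaks are not replicates of a condition, no test was made, and counts and medians are given beside those of all peaks or genes.

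The members and the gene lists were chosen with earlier results of these data known. Genes were named by rule where they are the 15 members with the highest wild-type q, those in both TgN(38-40) replicates, those in the lists of cohesin, limb, immediate early, cell cycle and other cell type genes, and the 3 peaks at each limit of the rule. Other genes were named after their values were seen. The tRNA genes, the B box and the CTCF model were examined after the values were seen. Alternatives were other q-values, distances, definitions of overlap and of a gene start, and leaving out a CTCF replicate. The steps were tested on simulated peaks, of which 1000 of 1000 were matched and placed rightly, and a planted motif was found in 600 of 600 sequences. The software was pysam 0.24.0, pandas 2.3.3, numpy 2.4.6, matplotlib 3.10.9 and scipy 1.17.1 under Python 3.11.15. Certain items are not reported here.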

Additional observations from a re-analysis of the deposited data

How the results depend on the processing

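The number of members was 784, and it moved by more than 1.5 times only with a wild-type -log10 q of at least 10, which left 282. With that threshold, the share found in replicate 1 was 8.51%, that in replicate 2 was 17.4% and the median summit was 4.5 bp from the gene start. That median was 54 bp within 500 bp of the start, 120 bp within 2000 bp and 27 bp for the starts of any protein-coding transcript. The share in replicate 2 was 3.32% with a reciprocal overlap of 50% and 2.42% where the replicate 2 peaks had a -log10 q of at least 5, and in replicate 1 it was 0.526% without the tRNA members. The 3 members in both replicates were 1 within 500 bp of the start, 0 with a reciprocal overlap of 50% and 0 at a TgN(38-40) -log10 q of at least 5, and 2 on mm10 and 1 on the custom genome once chromosomes 2 and 10, the former with Slc24a3, were left out. With the peaks of only 1 CTCF replicate, the number of members was 838 to 888, the share in replicate 1 was 3.04% to 3.1%, that in replicate 2 was 10.3% to 12%, 5 members were in both under each, and the median was 68 to 74.5 bp. The tRNA members numbered 22 to 24. Of the 24, 18 to 20 were in replicate 1, and of the 18 off chromosomes 2 and 10, 15 were on mm10 and 17 on the custom genome, with 0 in replicate 2 under each. These alternatives, and the mm10 lists without both chromosomes, were chosen after the data were seen. Shares counted as moved where they left the exact 95% binomial interval of the value reported, which covers counting error only. Of the alternatives, 59 left their result unmoved and 17 moved it. No paired analysis was possible because the wild type has 1 library and no result comes from a test. The depth of the libraries is unknown, so that absence from a list cannot be told apart from low depth.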
